A study of Arabidopsis thaliana with 14 samples.

Results

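The seed coat of Arabidopsis thaliana, the tissue of maternal origin around embryo and endosperm, was compared with every other compartment of the seed, and the transcripts that stood above all of them were described. A transcript was taken when its mean log2 signal in seed coat was at least 4-fold above the highest mean among the other 5 compartments, both as deposited and after each array was divided by its median. Signals below 25 were raised to 25, so a fold against a compartment at that floor is a lower limit. The rule left 218 of 22746 probe sets (0.958%), called the seed coat set here, and it used only the 12 compartment arrays.

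All samples came from untreated Ws-0 plants at the mature green stage, when the cotyledons reach the chalazal end and the seed coat layers are still whole. The groups were seed coat without its chalazal region, then chalazal seed coat, peripheral endosperm, micropylar endosperm, chalazal endosperm, embryo proper and whole seeds, with 2 arrays each and 14 in all. Each was cut by laser from paraffin sections of fixed siliques, and nanogram amounts of RNA were amplified before hybridisation to the ATH1 array, a chip with several short probes for each transcript. Per the labels the replicates are biological, with no word on which plants gave them, and the p-values therefore cover only the spread among these arrays. In a captured tissue, more cells of a type and more RNA per cell cannot be told apart.

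The mature seed coat derives from the integuments of the ovule. Its outer epidermis deposits pectin-rich mucilage and then a thick secondary wall, its inner epidermis accumulates tannins, and lipid polyesters related to cutin and suberin seal the layers. The chalazal region is the part into which the vascular strand of the mother plant unloads. During maturation the coat passes sugars to the filial tissues, and its own cells die as the seed dries.

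The seed coat arrays stood somewhat apart in signal. Their median signals were 194 and 203, against 134 to 175 on the 10 other compartment arrays. The hybridisation controls, 9 probe sets for spiked bacterial and phage RNA, averaged 82313 and 117011 (geometric means) in seed coat, against 33513 to 54626 in the other compartments. The replicate arrays correlated with a Pearson r of 0.818 in seed coat, against 0.892 to 0.936 in the other compartments. These correlations run over probe sets and carry no test. Ratios of 3′ to 5′ control probe sets in seed coat were 0.277 and 0.328 for actin and 0.887 to 1.18 for GAPDH, against 0.301 to 0.884 and 0.938 to 1.40 on the other compartment arrays. For ubiquitin the ratios were higher, at 3.44 to 4.65 in seed coat and 3.55 to 9.63 on the other compartment arrays. The part of these array differences in the results below was not tested, except through other scalings.

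The label was checked with 3 markers chosen with earlier results of these arrays known, which are therefore no independent check. AT1G73600, a phosphoethanolamine N-methyltransferase that makes the head group of phosphatidylcholine, had signals of 35555 and 42478 in seed coat, against 1049 and 5784 in chalazal seed coat and 35.6 to 349 on the 8 endosperm and embryo arrays. AT4G36610, an alpha/beta hydrolase, had 37143 and 42279 in seed coat, against 7919 and 1338 in chalazal seed coat and 4.82 to 440 in endosperm and embryo. AT3G14760, which has no role given here, had 34746 and 25495 in seed coat, against 2272 and 6007 in chalazal seed coat and at most 96.1 elsewhere. Their summed signal was 107444 to 110253 in seed coat, 11240 to 13129 in chalazal seed coat, 245.6 to 664 in the endosperm parts and 133 to 209 in embryo.

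Of the 218 probe sets, 124 had 1 gene in the table used, 5 had several and 89 had none, and 9 carry a suffix for probes shared between transcripts. The fold over the highest other compartment ran from 4.82 to 45.6 with a median of 7.19, and from just above the threshold to 33.8 with a median of 5.59 after division by the array median. It was at least 8-fold in 90 probe sets, at least 16-fold in 25 and at least 32-fold in 4. After scaling to the spiked controls instead, all 218 remained above the highest other compartment, by 1.91-fold to 19.9-fold with a median of 3.09, and 67 remained at least 4-fold above it. Levels in seed coat averaged 131.8 to 123634 with a median of 2317, and 151 lay above 1000 and 39 above 10000. The brightest had 137449 and 109818 in seed coat, against 45587 and 5967 in chalazal seed coat, and has no gene in the table. The member with the largest fold matches 2 genes and had 32468 and 2558 in seed coat, against 1601 and 14.8 in chalazal seed coat.

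**Figure D1:**
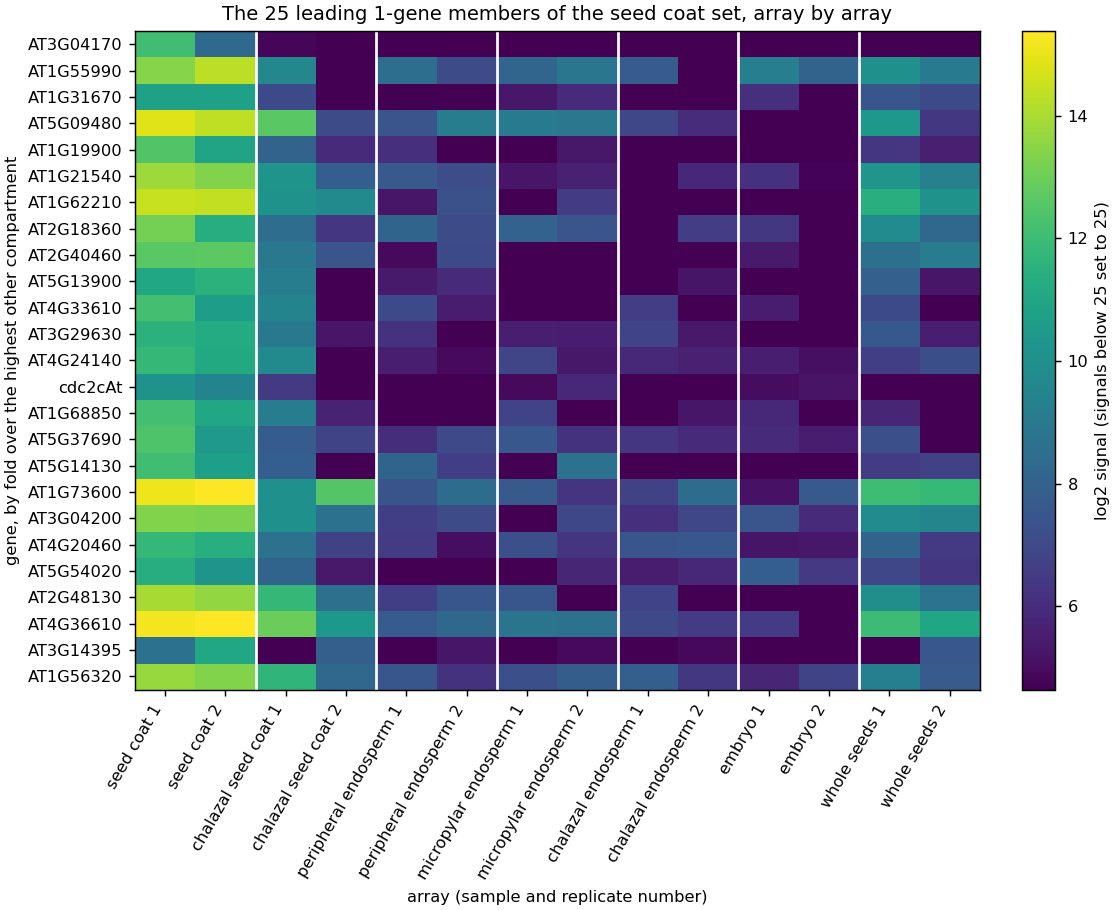
Log2 signals (colour) of the 25 members with 1 gene and the largest fold over the highest other compartment, 1 row a gene and 1 column an array, with seed coat on the left and whole seeds on the right. In every row both seed coat columns are brighter than the 10 other compartment columns, and the dark cells of endosperm and embryo are near or at the floor of 25.

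Of the 124 members with 1 gene, 73 have a role given here, grouped after the members were known. The largest of these groups, with 20 genes, held enzymes and carriers of lipids together with alpha/beta hydrolases whose substrates are not given here, at 4.82-fold to 23.5-fold over the highest other compartment. AT1G21540, an acyl-activating enzyme, had 14195 and 10435 in seed coat, against 1182 and 228 in chalazal seed coat, 4.56 to 197 in endosperm and embryo, and 1212 and 634 in whole seeds. AT2G18360, an alpha/beta hydrolase, had 8949 and 2553 in seed coat, against 357 and 80.3 in chalazal seed coat and 8.11 to 275 in endosperm and embryo. AT4G24140, of the family of BODYGUARD, a hydrolase needed for cuticle formation, had 3575 and 2263 in seed coat, against 882 and 12.2 in chalazal seed coat and 30.5 to 119 in endosperm and embryo. For all 3 genes the lower seed coat array was above every other compartment array.

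Several of these lipid genes belong to families that build or export surface lipids. The lipid transfer protein AT5G13900 had 2193 and 2957 in seed coat, against 575 and 16.2 in chalazal seed coat and at most 63.0 in endosperm and embryo. AT2G48130, a lipid transfer protein with a membrane anchor, had 16197 and 12799 in seed coat, against 3535 and 389 in chalazal seed coat. AT3G22620, another lipid transfer protein, had 27576 and 25134 in seed coat, against 11847 and 1287 in chalazal seed coat and 7.80 to 250 elsewhere. For these transfer proteins chalazal seed coat replicate 1 was above its replicate 2 each time. AT5G08250, a cytochrome P450 of the CYP86 family that hydroxylates fatty acids, had 5194 and 4814 in seed coat, against 1239 and 250 in chalazal seed coat and at most 90.9 in endosperm and embryo. AT5G12420, a wax ester synthase, had 3446 and 2909 in seed coat, against 360 and 446 in chalazal seed coat and 7.10 to 97.6 in endosperm and embryo. The GDSL lipases, a family that includes cutin-forming enzymes, gave 4 members: AT5G37690 (5449 and 1370 in seed coat, 17.2-fold), AT2G23540 (6480 and 1725, 11.6-fold), AT1G74460 (2054 and 1630, 5.82-fold) and AT1G28590 (1968 and 872, 5.35-fold).

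A second acyl-activating enzyme, AT1G20500, had 9249 and 8702 in seed coat, against 834 and 1840 in chalazal seed coat and 14.1 to 848 in endosperm and embryo. AT3G13900, a P4 ATPase that flips phospholipids across membranes, had 2764 and 3179 in seed coat, while chalazal seed coat gave 32.8 and 1795. FACT (AT5G63560), which links caffeate to fatty alcohols in suberin-associated waxes, entered the set on a single array, with 1949 and 12.3 in seed coat against 84.1 and 8.63 in chalazal seed coat. It is the only member of the suberin and cutin list (20 loci) that has a probe set of its own in the table used, and it was below the filter for testing, so the list gave no called gene in either direction.

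Oxidative enzymes of the cell wall space gave 10 members with a median of 15.7-fold, and 7 of them remained at least 4-fold above the highest other compartment after spike-in scaling. AT3G04170, a germin-like protein of the apoplast, had 4395 and 320 in seed coat, against 28.6 and 20.5 in chalazal seed coat and at most 14.7 in endosperm and embryo, which made it the gene with the largest fold (44.3) although its replicates lay far apart. AT3G04200, another germin-like gene 7 genes away in the annotation, had 10272 and 9770 in seed coat, against 1053 and 408 in chalazal seed coat and 7.49 to 176 in endosperm and embryo. AT1G31670, a copper amine oxidase that releases hydrogen peroxide from polyamines, had 1755 and 1788 in seed coat, against 134 and 25.5 in chalazal seed coat and at most 70.5 in endosperm and embryo. AT1G19900, a galactose oxidase-like protein, had 5650 and 1908 in seed coat, against 270 and 62.6 in chalazal seed coat and at most 69.7 in endosperm and embryo. The amine oxidase and AT3G04200 were even between the seed coat arrays, while AT3G04170 and AT1G19900 were higher on replicate 1.

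Class III peroxidases and other oxidases followed. AT1G68850 had 4562 and 2124 in seed coat, against 569 and 50.5 in chalazal seed coat and 3.09 to 110 in endosperm and embryo. AT5G14130 had 4346 and 1665 in seed coat, against 234 and 6.37 in chalazal seed coat and 4.80 to 408 in endosperm and embryo. AT1G19230, a respiratory burst NADPH oxidase that makes superoxide outside the cell, had 7367 and 6909 in seed coat, against 833 and 348 in chalazal seed coat, 506 to 784 in the endosperm parts and at most 14.7 in embryo. LAC16 (AT5G58910), a laccase, was dimmer, with 268 and 180 in seed coat and below the floor of 25 on all 10 other compartment arrays. The berberine bridge enzyme-like oxidases AT4G20820 (3118 and 1012) and AT4G20860 (987 and 352) lie 5 genes apart. For AT4G20860 chalazal seed coat gave 2.38 and 560, so its lower seed coat array was below that replicate.

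Structural wall and secreted proteins gave 7 members, and chalazal seed coat was the next compartment for all 7. The proline-rich protein AT5G09480 had 29217 and 20894 in seed coat, against 6378 and 141 in chalazal seed coat, 64.5 to 577 in the endosperm parts, at most 6.82 in embryo and 1309 and 82.5 in whole seeds. AT2G22510 had 17200 and 9913 in seed coat, against 4667 and 293 in chalazal seed coat, and AT4G38080 had 24393 and 22394, against 7794 and 1636. All 3 proline-rich genes gave the same picture, with chalazal replicate 1 between seed coat and chalazal replicate 2. The extensin-like AT2G43150 was even on both sides, with 4090 and 4050 in seed coat against 590 and 634 in chalazal seed coat. AT2G21100, a dirigent protein of the family that guides phenol coupling, had 3103 and 2025 in seed coat, against 428 and 283 in chalazal seed coat.

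Polysaccharide enzymes gave 10 members at 5.71-fold to 14.9-fold, of which 2 remained 4-fold above the others after spike-in scaling. AT4G20460, an epimerase of nucleotide sugars, had 3566 and 2709 in seed coat, against 412 and 106 in chalazal seed coat and 32.9 to 187 in endosperm and embryo. TBL30 (AT2G40160), of the family that acetylates wall polysaccharides, had 1139 and 1256 in seed coat, against 156 and 11.5 in chalazal seed coat and 3.16 to 132 in endosperm and embryo. AT5G15740, a glycosyltransferase with an O-fucosyltransferase fold, had 15474 and 15947 in seed coat, against 905 and 3449 in chalazal seed coat and 77.4 to 329 in endosperm and embryo. Members of the same fold were AT1G22460 (469 and 236) and AT1G11990 (1161 and 953), and the pectin enzymes were the methylesterase AT1G11590 (1383 and 774) and the polygalacturonase-like AT2G43880 (458 and 145).

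Transporters gave 6 members. SAG29 (AT5G13170), also named SWEET15, a sucrose exporter, had 13994 and 15670 in seed coat, against 1284 and 2218 in peripheral endosperm, 1331 and 1435 in chalazal endosperm, 391 and 537 in micropylar endosperm, 252 and 316 in chalazal seed coat and 76.2 and 30.6 in embryo. Peripheral endosperm, not chalazal seed coat, was its next compartment, and no replicate pair overlapped the seed coat arrays. AT2G40460, of the nitrate and peptide transporter family, had 6311 and 6578 in seed coat, against 495 and 180 in chalazal seed coat and at most 134 in endosperm and embryo. The sugar transporter AT5G18840 had 2782 and 1299 in seed coat, against 278 and 122 in chalazal seed coat. The Sec14-type lipid-binding proteins AT1G01630 (7658 and 7926) and AT4G36640 (3208 and 3161) were also members, and chalazal seed coat gave 375 and 4439 for AT1G01630.

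Kinases and transcription factors gave 10 members at 5.40-fold to 19.1-fold. The kinase named cdc2cAt (AT5G39420) had 1124 and 707 in seed coat, against 87.3 and 8.55 in chalazal seed coat and at most 59.1 in endosperm and embryo. The brightest kinases were AT1G66460 with 13146 and 12826 in seed coat, against 2356 and 1614 in chalazal seed coat, and AT4G02630 with 14522 and 9517, against 1707 and 2776. The AP2/ERF transcription factors AT3G16280 (623 and 493) and AT2G20350 (223 and 111) were dim. Smaller groups held the UDP-glycosyltransferases AT3G29630 (2970 and 2425, 19.2-fold), UGT71B1 (9696 and 6942, 7.68-fold) and UGT73B1 (5745 and 4786, 6.09-fold), and the ACC oxidase AT1G12010 of ethylene synthesis (30570 and 25878 in seed coat, against 9577 and 1910 in chalazal seed coat). The metalloprotease AT4G16640 (4422 and 4131) and the aspartyl protease AT2G03200 (1961 and 174), the thionin THI2.1 (421 and 299) and the defensin LCR67 (182 and 197) completed them.

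Leading members without a role given here included AT1G55990, with 11006 and 20544 in seed coat, against 778 and 16.3 in chalazal seed coat and 604 and 266 in embryo, the highest other compartment by its mean log2 signal. AT1G62210 had 22595 and 21617 in seed coat, against 1097 and 851 in chalazal seed coat. AT4G33610 had 4667 and 1599 in seed coat, against 724 and 17.4 in chalazal seed coat, and AT1G56320 had 13570 and 10507, against 3262 and 306. AT1G62070 was the brightest member with 1 gene, with 92803 and 110939 in seed coat, 4931 and 26705 in chalazal seed coat, 6.47 to 1100 in endosperm and embryo, and 23415 and 18956 in whole seeds. AT1G11170 had 50477 and 42560 in seed coat, against 9122 and 5188 in chalazal seed coat and 977 to 8211 in endosperm and embryo, so it was present in all compartments. The P450 genes CYP71B21 (311 and 140) and CYP71B29 (318 and 62.3), SP1L2 (208 and 520), iqd15 (6589 and 6258) and CXE18 (717 and 875) were the further members with a symbol, beside GILT (AT4G12960), a thiol reductase of the vacuole or lysosome. GILT had 7412 and 5354 in seed coat, and chalazal seed coat gave 158 and 8537, so its replicates there lay on both sides.

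**Figure D2:**
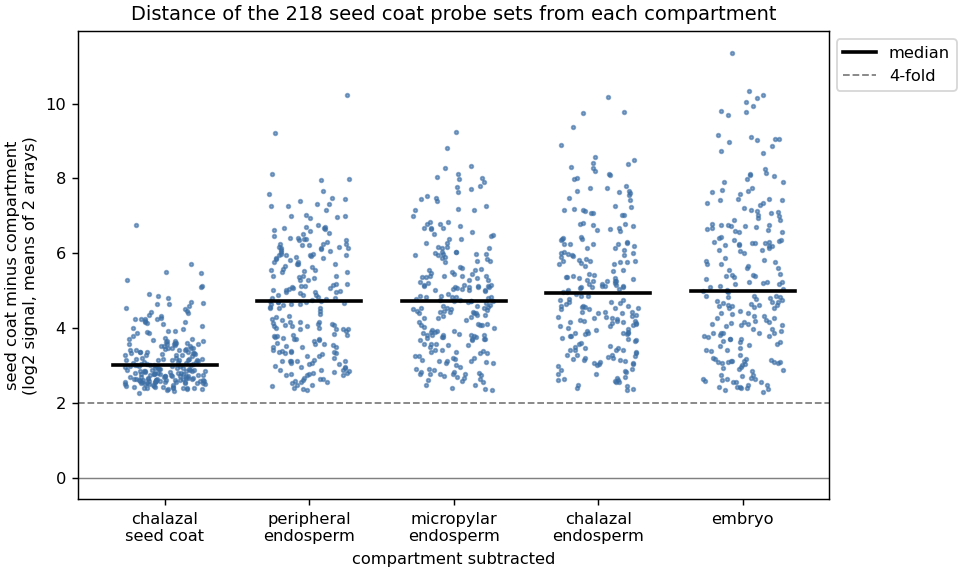
Seed coat mean minus the mean of each other compartment (log2 signal, vertical axis) for the 218 members, 1 point a probe set, with the median as a black bar and the 4-fold threshold as a dashed line. The medians are 3.01 for chalazal seed coat and between 4.73 and 4.99 for the other 4 compartments.

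Among the other compartments, chalazal seed coat came closest to seed coat in these transcripts, by values that the rule used. The highest other compartment was not counted over all probe sets, so this describes the members only. Chalazal seed coat was the highest of them for 156 of 218 members, embryo for 20, peripheral endosperm for 14, micropylar endosperm for 11 and chalazal endosperm for 8. For the remaining 9 all 5 other compartments were at the floor, so none was the highest. The median log2 difference of the members was 3.01 against chalazal seed coat, 4.74 against peripheral endosperm, 4.73 against micropylar endosperm, 4.94 against chalazal endosperm and 4.99 against embryo, beside -0.06 to 0.06 over all tested probe sets. Signals were below the floor on both embryo arrays for 71 members (32.6%, beside 11.9% of all probe sets), and on both chalazal seed coat arrays for 19 (8.72%, beside 10.9%), which describes values the rule used and is no finding. Chalazal seed coat was at least 2-fold above embryo and all endosperm parts in 105 of the 156 members. It was at least 4-fold above them in 54, beside 788 of all 22746 probe sets. The rule used these values too, so the counts only describe the members. With chalazal seed coat left out of the comparison, 890 probe sets were at least 4-fold higher in seed coat than in embryo and every endosperm part.

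The chalazal seed coat arrays disagreed on these members. They lay over 4-fold apart for 85 of 218 (39.0%), beside 7.65% of all tested probe sets, with replicate 1 higher in 52 and replicate 2 in 33. The median absolute log2 difference between them was 1.73 over the members and 0.56 over all tested probe sets. The rule used these values: 1 low chalazal array lowers that mean and helps a probe set to pass, so nothing is read from the excess over all tested probe sets. The seed coat arrays lay over 4-fold apart for 13 members (5.96%), against 10.4% of all tested probe sets, with a median absolute difference of 0.48 over the members and 0.59 over all tested. The rule used these values too, so nothing is read from this smaller spread. Replicate 1 was the higher seed coat array in 155 members and replicate 2 in 63, while replicate 1 was the higher in 47.6% of all tested probe sets.

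**Figure D3:**
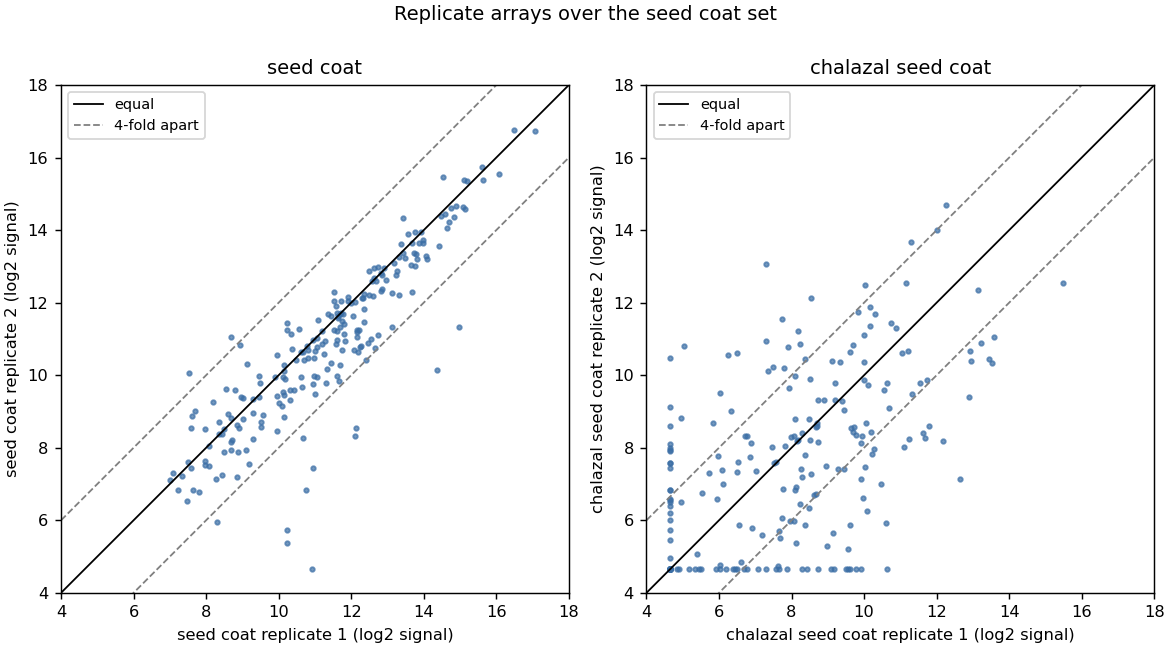
Replicate 2 against replicate 1 (log2 signal, signals below 25 raised to 25) for the 218 members, in seed coat on the left and chalazal seed coat on the right, with solid lines at equality and dashed lines at a 4-fold difference. In seed coat 13 members lie outside the dashed lines, and in chalazal seed coat 85 do, on both sides.

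Agreement was closest for bright members. The median absolute log2 difference between seed coat replicates was 0.65 for the 67 members below 1000, 0.42 for the 112 between 1000 and 10000 and 0.32 for the 39 above 10000. All tested probe sets were not split by level, and the rule used these values, so nothing is read from this order. Both seed coat arrays lay above all 10 other compartment arrays in 213 members, which the rule nearly fixes, and for 82 members the lower seed coat array was, as deposited, at least 4-fold above the highest of them. The members nearest the threshold were FACT and a pair of probe sets with no gene just inside it, and AT5G61370, AT2G18370 and AT2G13720 just outside. AT2G18370 rested on 1 array, with 20417 and 5.10 in seed coat against 889 and 3.25 in chalazal seed coat. Leaving out seed coat replicate 2 raised the set to 359 probe sets, of which 206 were shared, and leaving out replicate 1 gave 238, of which 165 were shared.

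Whole seeds, which the rule did not use, contain the seed coat diluted by the other tissues. The mean of whole seeds was below that of seed coat for all 218 members, by a median of 9.43-fold. Choosing members by high seed coat values nearly fixes this. The whole-seed mean was above embryo and every endosperm part for 146 members (67.0%), beside 23.8% of all probe sets. Since the rule chose members with low embryo and endosperm values, that share is partly fixed by the choice. With chalazal seed coat counted too, the whole-seed mean was above the highest other compartment for only 81 of the 218 members. Whole-seed signals were at the floor on both arrays for 25 members, and on either or both for 57. Among the 39 members above 10000 the fold of seed coat over whole seeds ran from 4.82 to 218 with a median of 12.9. AT1G73600 had 4222 and 3622 in whole seeds and AT4G36610 had 4138 and 2028, both above all endosperm and embryo arrays. For the proline-rich genes the whole-seed arrays were uneven, at 1309 and 82.5 for AT5G09480 and 661 and 44.2 for AT2G22510.

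Some members lie near each other in the annotation. Of the members with 1 gene, 6 pairs were within 10 genes, namely the germin-like pair and the berberine bridge enzyme-like pair above, AT4G36610 with AT4G36640 (4 genes apart), AT1G11990 with AT1G12010 (2 apart), AT5G52750 with AT5G52810 (7 apart) and AT4G17215 with AT4G17280 (9 apart). Of these only the germin-like and berberine bridge enzyme-like pairs join members given the same role here. Such pairs were not counted among other genes of the array, so nothing is read from these 6.

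The comparisons over all 14142 tested probe sets place the set in the whole array. With limma, at an adjusted p below 0.05, seed coat differed least from chalazal seed coat, with 926 probe sets higher (6.55%) and 913 lower (6.46%). Against peripheral endosperm 1727 were higher (12.2%) and 1838 lower (13%), against micropylar endosperm 1824 higher (12.9%) and 1826 lower (12.9%), against chalazal endosperm 1738 higher (12.3%) and 1693 lower (12%), and against embryo 2218 higher (15.7%) and 2194 lower (15.5%). In all 5 comparisons 231 probe sets were higher (1.63%) and 139 lower (0.983%). Of the 231, 151 belonged to the set, of whose members 194 were tested, and nothing is read from that share because the same arrays chose the members. The other 80 were called in every comparison without reaching the 4-fold rule. All 5 comparisons share the seed coat arrays, so their counts are not separate findings.

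The split between higher and lower depended on the scaling. As deposited, 48.4% to 50.7% of the calls were higher in seed coat. After division by the array median 27.3% to 35.6% were, with the median difference of all tested probe sets moved by -0.35 to -0.50 on the log2 scale. After scaling to the spiked controls 4.56% to 16.1% were, with a shift of -1.06 to -1.48, and after quantile normalization 42.8% to 45.8%, with a shift of -0.09 to -0.18. Which scaling matches RNA amounts cannot be told from the arrays, so each difference below is relative to the deposited scaling. Leaving out 1 array, which can also weaken the tests, moved several counts by over 1.5 times. In all 5 comparisons 92 probe sets were higher without seed coat replicate 1 and 135 without chalazal seed coat replicate 1, while 247 were lower without seed coat replicate 2, 65 without replicate 1 of chalazal seed coat and 87 without its replicate 2. Omitting replicate 1 of peripheral endosperm left 85 lower in all 5, omitting its replicate 2 left 87, and omitting replicate 2 of micropylar endosperm left 89. Against chalazal seed coat, 381 were higher and 408 lower without its replicate 1, and 613 were higher without seed coat replicate 2. Against peripheral endosperm, 985 were higher and 915 lower without its replicate 1, and 1063 and 940 without its replicate 2. Against micropylar endosperm these counts were 1141 and 1016 without its replicate 1, and 1186 and 1032 without its replicate 2, and against chalazal endosperm 953 were lower without its replicate 1.

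**Figure D4:**
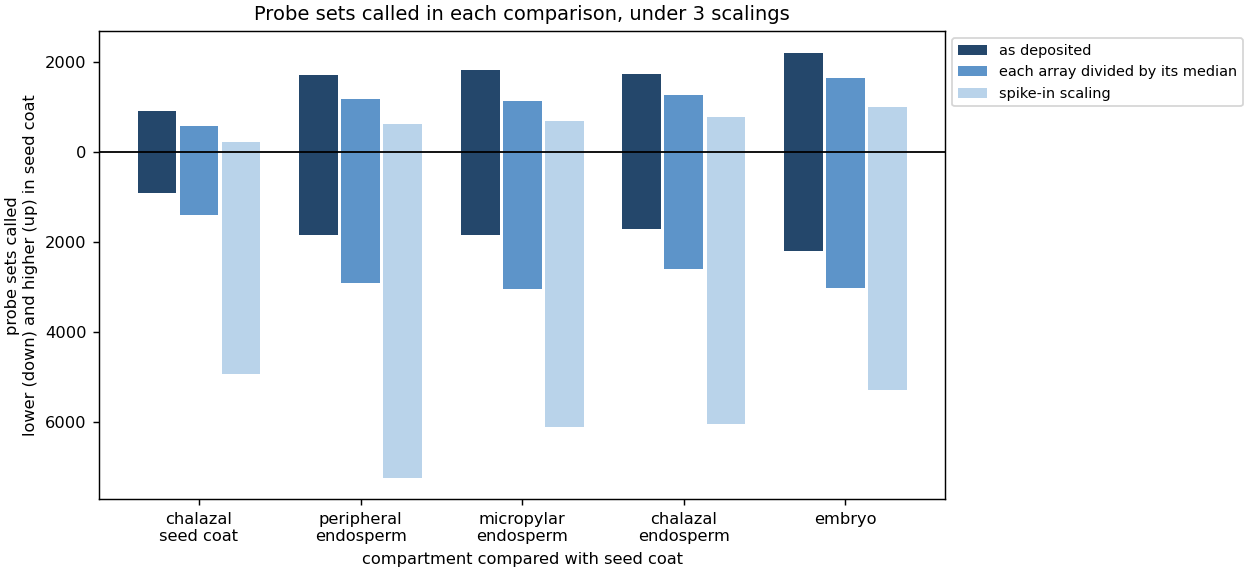
Number of probe sets called higher in seed coat (bars up) and lower (bars down) against each other compartment by limma at an adjusted p below 0.05, with 3 bars a compartment for the deposited values, division by the array median and spike-in scaling. The upward bars shrink and the downward bars grow with spike-in scaling, as for chalazal seed coat with 926 higher and 913 lower as deposited, and 235 higher and 4920 lower with spike-in scaling.

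The named genes with the largest differences show what separates seed coat from each neighbour. Among genes with a symbol, the set member SAG29 led against chalazal seed coat and embryo, and TBL30, GILT and UGT73B1 were other members among the leading ones. TET15 (AT5G57810), a tetraspanin of membranes, had 534 and 884 in seed coat and was below the floor on both chalazal seed coat arrays, at least 27.5-fold higher (log2 difference 4.78 ± 0.50 SE, limma adjusted p = 4.7e-05). In the other direction SWEET10 (AT5G50790), a sugar exporter, was below the floor on both seed coat arrays and had 34178 and 18253 in chalazal seed coat, at least 999-fold lower in seed coat (-9.96 ± 0.66, limma adjusted p = 9.4e-07). The subtilase SBT4.13 (AT5G59120) was likewise below the floor in seed coat, with 1727 and 5704 in chalazal seed coat and 8695 and 5042 in chalazal endosperm (at least 125.5-fold and 264.8-fold lower in seed coat, limma adjusted p = 2.6e-05 and 4.9e-06).

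Against the endosperm parts, RING1 (AT5G10380), a ubiquitin ligase of defence, had 2265 and 3417 in seed coat and was below the floor on all 6 endosperm arrays, at least 111-fold higher (limma adjusted p = 1.6e-05 to 2e-05). BGLU45 (AT1G61810), a beta-glucosidase that acts on monolignol glucosides, had 6237 and 4801 in seed coat, against 65.3 and 110 in peripheral endosperm (log2 difference 6.02 ± 0.59, limma adjusted p = 1.5e-05) and 10.2 and 55.7 in embryo (7.20 ± 0.59, limma adjusted p = 9.9e-07). The carboxypeptidase-like scpl35 (AT5G08260) had 2152 and 1455 in seed coat, against 7.23 and 55.4 in chalazal endosperm (5.57 ± 0.79, limma adjusted p = 0.00017). RING1, BGLU45 and scpl35 are not members of the set, since another compartment came closer to seed coat than 4-fold.

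Other genes were lower in seed coat than in 1 of its neighbours. DI21 (AT4G15910), a drought-induced gene, had 279 and 735 in seed coat, against 12206 and 13559 in micropylar endosperm (log2 difference -4.83 ± 0.46, limma adjusted p = 1.1e-05). CYP79A2 (AT5G05260), a P450 that converts phenylalanine to its oxime, was below the floor in seed coat and had 3949 and 1767 in chalazal endosperm, at least 106-fold lower in seed coat (limma adjusted p = 1.1e-05). The glycosyltransferase UGT84B1 (AT2G23260) had 26.4 and 363 in seed coat, against 7951 and 4155 in chalazal endosperm (-5.88 ± 0.90, limma adjusted p = 0.00034). LCR68 (AT2G02130), a defensin-like protein, had 117 and 208 in seed coat, against 13848 and 12277 in embryo (-6.38 ± 0.47, limma adjusted p = 4.2e-07), whereas its relative LCR67 is a member of the set. MSRB6 (AT4G04840), a methionine sulfoxide reductase, had 46.2 and 73.9 in seed coat, against 10079 and 7399 in embryo (-7.21 ± 1.04, limma adjusted p = 0.00013) and 2042 and 1031 in peripheral endosperm (-4.63 ± 1.04, limma adjusted p = 0.0046, and 0.055 without peripheral endosperm replicate 1). The cellulase GH9C1 and the microtubule protein ATMAP65-6 were lower than in peripheral endosperm too, at log2 differences of -4.38 and -4.31. Both had uneven seed coat arrays, at 32.2 and 274 for GH9C1 and 249 and 14.0 for ATMAP65-6. The GH9C1 call was lost without peripheral endosperm replicate 2 (-3.79) or seed coat replicate 1 (-2.84). For ATMAP65-6 the difference ran from -5.97 to -2.65 with single arrays left out.

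The gene lists hold 206 loci in 14 lists, of which 53 have a probe set of their own in the table used and 51 were tested. Of 29 loci for mucilage and integument regulators 4 were tested, and 4 of 4 were higher in seed coat than in each endosperm part and in embryo, with medians of 3.28 to 3.81 on the log2 scale beside -0.06 to 0.01 over all tested probe sets. Against chalazal seed coat 1 of 4 was higher (median 0.69, beside 0.06). No test compares these 4 genes with the share of all probe sets called higher, given above. ARA12 (AT5G67360), a subtilase needed for mucilage release, had 19636 and 11495 in seed coat, against 5423 and 10122 in chalazal seed coat (1.02 ± 0.43, limma adjusted p = 0.13), 679 to 1557 in the endosperm parts and 412 and 646 in embryo (4.86 ± 0.43, limma adjusted p = 2e-06). AT2G22900, a galactosyltransferase that decorates mucilage glucomannan, had 6635 and 9260 in seed coat, against 1382 and 3396 in chalazal seed coat (1.86 ± 0.45, limma adjusted p = 0.015). That call was lost without chalazal seed coat replicate 1 (limma adjusted p = 0.17) or seed coat replicate 2 (0.096), and with spike-in scaling (0.27).

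The remaining mucilage genes were dim and shared by both coat regions. AT3G10320, a xylosyltransferase of mucilage xylan, had 534 and 414 in seed coat, against 340 and 391 in chalazal seed coat (0.37 ± 0.64, limma adjusted p = 0.76) and at most 38.9 in endosperm and embryo. AT3G50990, the peroxidase PER36 that helps the outer wall break open, had 310 and 338 in seed coat, against 207 and 321 in chalazal seed coat (0.33 ± 0.69, limma adjusted p = 0.8) and 3.94 to 65.0 in endosperm and embryo. Its call against peripheral endosperm was lost without either peripheral endosperm replicate (limma adjusted p = 0.1 and 0.058), with no floor (0.23) and with spike-in scaling (0.26), and that against embryo without embryo replicate 1 (0.052) and with spike-in scaling (0.055). HCT (AT5G48930), a transferase of lignin monomer synthesis and the only tested gene of 24 in the secondary wall and lignin list, had 4851 and 3145 in seed coat, against 4278 and 1581 in chalazal seed coat (0.59 ± 0.51, limma adjusted p = 0.5) and 474 to 1293 elsewhere. HCT was higher than in each endosperm part and embryo (1.93 to 2.38, limma adjusted p = 0.0037 to 0.013), but not with spike-in scaling (0.58 to 1.16, limma adjusted p = 0.11 to 0.43). Its call was also lost against micropylar endosperm without micropylar endosperm replicate 2 or seed coat replicate 1 (limma adjusted p = 0.097 for each), against chalazal endosperm without its replicate 2 (0.054), and against embryo without embryo replicate 1 (0.093) or seed coat replicate 1 (0.074).

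The flavonoid and tannin list, with 5 of 19 loci tested, split by gene. UGT78D1 (AT1G30530), which puts rhamnose on flavonols, was higher than in all 5 compartments, with 13674 and 14597 in seed coat, against 3434 and 6018 in chalazal seed coat (1.64 ± 0.33, limma adjusted p = 0.0055, and 0.072 without chalazal seed coat replicate 1) and 2427 to 6417 elsewhere. With spike-in scaling it differed from chalazal endosperm alone, and its difference from micropylar endosperm turned to -0.073 (limma adjusted p = 0.88). That difference also did not pass without micropylar endosperm replicate 1 (limma adjusted p = 0.088) or seed coat replicate 2 (0.051), nor that from peripheral endosperm without its replicate 1 (0.05). BAN (AT1G61720), the anthocyanidin reductase of tannin synthesis, had 24.0 and 24.8 in seed coat, against 357 and 1189 in chalazal seed coat, at least 26-fold lower in seed coat (-4.70 ± 0.74, limma adjusted p = 0.001, but 0.089 with no floor). DFR (AT5G42800), the reductase before it, had 185 and 292 in seed coat, against 932 and 2907 in chalazal seed coat (-2.83 ± 0.74, limma adjusted p = 0.021, but 0.16 without chalazal seed coat replicate 2 and 0.09 without seed coat replicate 1). UGT80B1 and UGT78D2 were called in none of the 5 comparisons.

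Of 15 loci for cell death and vacuolar proteases 7 were tested. Against chalazal seed coat 1 was higher (6.55% of all tested probe sets) and 0 lower (6.46%), with a median of 0.18, beside 0.06. Against embryo 6 were higher (15.7%) and 1 lower (15.5%), with a median of 3.14, beside 0.01. Against the endosperm parts 2 or 3 were higher (12.2% to 12.9%) and 3 or 4 lower (12% to 13%), with medians of -1.06 to -1.29. No test compares these 7 genes with those shares. Several endosperm calls were borderline. Without seed coat replicate 1, DELTA-VPE and GAMMA-VPE were no longer called higher against micropylar endosperm (log2 differences 1.73 and 1.12), nor was scpl48 called lower there (-1.27). The call of scpl48 against micropylar endosperm was also lost without any 1 chalazal seed coat, endosperm or remaining seed coat array. Its difference stayed at -1.13 where the array left out was of neither tissue compared, and ran from -0.97 to -1.28 over all arrays left out. Its call against chalazal endosperm was lost without chalazal endosperm replicate 1 (-1.54) or seed coat replicate 2 (-1.42). AT4G01610, a cathepsin B-like protease, had 6294 and 9072 in seed coat, against 16580 and 10020 in chalazal seed coat (-0.77 ± 0.35, limma adjusted p = 0.17), 627 to 3251 in the endosperm parts and 19.3 and 10.6 in embryo (8.24 ± 0.35, limma adjusted p = 2.7e-09). The vacuolar processing enzyme GAMMA-VPE (AT4G32940) had 19788 and 11411 in seed coat, against 29015 and 19238 in chalazal seed coat (-0.65 ± 0.34, limma adjusted p = 0.24), 3695 to 6002 in the endosperm parts and 2619 and 1880 in embryo (2.76 ± 0.34, limma adjusted p = 3.8e-05). ALPHA-VPE (AT2G25940) was the reverse within the endosperm comparison, with 948 and 591 in seed coat, against 11680 and 14400 in peripheral endosperm (-4.11 ± 0.49, limma adjusted p = 5.3e-05).

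DELTA-VPE (AT3G20210), known from cells that die early in the inner seed coat, had 1736 and 2102 in seed coat, against 708 and 540 in chalazal seed coat (1.63 ± 0.49, limma adjusted p = 0.039), 535 to 2153 in the endosperm parts and 5.93 and 4.35 in embryo, at least 76.4-fold higher than there (6.26 ± 0.49, limma adjusted p = 6.7e-07). Its difference from chalazal seed coat did not pass without any 1 of the 4 arrays of these tissues (limma adjusted p = 0.079 to 0.14), any 1 peripheral or micropylar endosperm array (0.05 to 0.065) or after division by the array median (0.11). BETA-VPE (AT1G62710), which processes storage proteins, had 3125 and 5115 in seed coat, against 21894 and 20099 in embryo (-2.39 ± 0.33, limma adjusted p = 8.7e-05). The aspartic protease AT4G04460 had 4898 and 3934 in seed coat, against 49098 and 42550 in chalazal endosperm (-3.38 ± 0.60, limma adjusted p = 0.001), and scpl48 (AT3G45010) had 8788 and 7207, against 369 and 143 in embryo (5.11 ± 0.39, limma adjusted p = 6.7e-07). Both senescence genes tested were dim, and WRKY53, with 280 and 373 in seed coat, was called higher against peripheral and chalazal endosperm, but neither call held without either seed coat replicate (limma adjusted p = 0.054 to 0.086), nor the first without peripheral endosperm replicate 1 (0.29) or the second without chalazal endosperm replicate 1 (0.11) or 2 (0.074).

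Sugar exporters differed in where they were found. Of 15 transport loci 5 were tested. Against embryo 4 were higher (15.7% of all tested probe sets) and 0 lower (15.5%), with a median of 3.75. Against chalazal seed coat 1 was higher (6.55%) and 2 lower (6.46%), with a median of -0.91, beside 0.06. SAG29 is among the 4 and is the 1 higher than in chalazal seed coat, and the rule that chose it used these values. Beside SAG29 and SWEET10 above, SWEET7 (AT4G10850) had 463 and 620 in seed coat, against 1579 and 3088 in chalazal seed coat (-2.04 ± 0.42, limma adjusted p = 0.0055), 2499 to 6911 in the endosperm parts and 6.08 and 20.4 in embryo. SWEET11 (AT3G48740) had 2038 and 1449 in seed coat, against 866 and 1469 in chalazal seed coat (0.61 ± 0.46, limma adjusted p = 0.43), 5214 and 8040 in peripheral endosperm (-1.91 ± 0.46, limma adjusted p = 0.0071, but 0.089 without peripheral endosperm replicate 2 and 0.054 without seed coat replicate 2) and 126 and 130 in embryo. SWEET4 (AT3G28007) was dim, with 131 and 67.7 in seed coat and 165 and 190 in chalazal seed coat. Its call against embryo, 1 of the 4, was lost without either embryo replicate (limma adjusted p = 0.12 for each) or seed coat replicate 1 (0.2), after division by the array median (0.097), with quantile normalization (0.12), with spike-in scaling (0.38) and with a floor of 100 (0.5). Of these 5 genes, SAG29 alone had its highest level in seed coat, for which it was chosen as a member.

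Starch genes gave 2 tested of 8. AMY1 (AT4G25000), a secreted alpha-amylase, had 2737 and 3065 in seed coat, against 136 and 279 in chalazal seed coat (3.89 ± 0.50, limma adjusted p = 0.00021), 494 and 406 in chalazal endosperm, 1270 and 815 in peripheral endosperm, 947 and 1859 in micropylar endosperm (1.13 ± 0.50, limma adjusted p = 0.11) and 88.2 and 70.8 in embryo (5.20 ± 0.50, limma adjusted p = 3.7e-06). Its call against peripheral endosperm (1.51 ± 0.50, limma adjusted p = 0.038) did not hold without any 1 of the 4 arrays of these tissues (limma adjusted p = 0.078 to 0.25) and turned to -0.03 with spike-in scaling (0.97). APL3 (AT4G39210), a subunit of ADP-glucose pyrophosphorylase, had 209 and 413 in seed coat and 109 and 551 in chalazal seed coat. In the phosphocholine list, with 4 of 6 tested, AT1G73600 was the set member described above, its homologue PMEAMT (AT1G48600; 318 and 761 in seed coat) was called higher against micropylar endosperm alone, and not without any 1 of the 4 arrays compared there (limma adjusted p = 0.06 to 0.2), and CCT1 and CCT2, which use phosphocholine further on, were called in none of the 5 comparisons (log2 differences -0.84 to 0.33). Levels of different probe sets are not comparable between genes, so only the differences between compartments are read here.

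**Figure D5:**
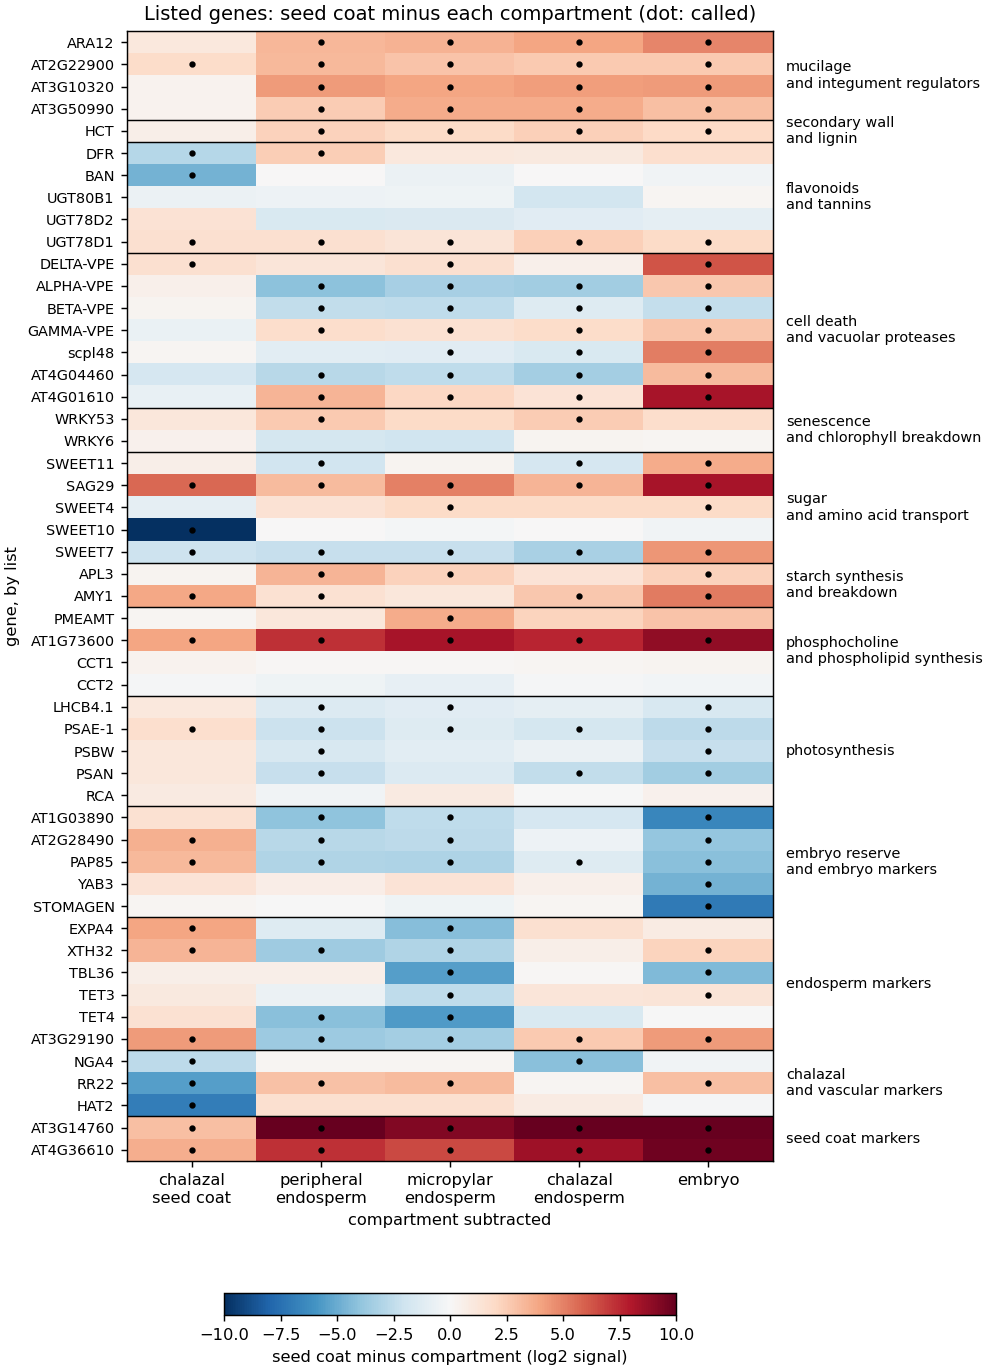
Seed coat minus each other compartment (log2 signal, colour, red for higher and blue for lower in seed coat) for the tested genes of the lists, with a dot where limma called the difference and AT1G73600 drawn under the phosphocholine list. The mucilage genes are red in the 4 right columns, the photosynthesis genes except RCA blue against endosperm and embryo, and SWEET10 and HAT2 deepest blue against chalazal seed coat.

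Of 25 photosynthesis loci 5 were tested. In seed coat 4 of 5 were lower than in embryo (median -2.31, beside 0.01, with 15.5% of all tested probe sets lower), 4 lower than in peripheral endosperm (13%), 2 lower than in micropylar endosperm (12.9%), 2 lower than in chalazal endosperm (12%) and 1 higher than in chalazal seed coat (6.55%). With less left to estimate the spread, several of these calls did not hold without seed coat replicate 1. Without it LHCB4.1, PSBW and PSAN were not called against peripheral endosperm (limma adjusted p = 0.12, 0.32 and 0.06), LHCB4.1 and PSAE-1 against micropylar endosperm (0.28 and 0.13), or LHCB4.1 and PSBW against embryo (0.051 and 0.059), which left 1, 0 and 2 genes. LHCB4.1 and PSBW were also not called against peripheral endosperm without either of its replicates (0.057 to 0.16). PSAE-1 (AT4G28750) of photosystem I had 989 and 1661 in seed coat, against 332 and 494 in chalazal seed coat (1.66 ± 0.36, limma adjusted p = 0.0083, but 0.083 without chalazal seed coat replicate 1, 0.07 without seed coat replicate 2 and 0.37 with spike-in scaling), 2462 to 6246 in the endosperm parts and 7848 and 8275 in embryo (-2.65 ± 0.36, limma adjusted p = 8.2e-05). PSAN (AT5G64040) had 345 and 718 in seed coat, against 5727 and 5588 in embryo (-3.51 ± 0.53, limma adjusted p = 0.00018). RCA, the activase of Rubisco, was called in none of the 5 comparisons, with 688 and 981 in seed coat. The summed signal of the 5 genes was 5918 and 12505 on the seed coat arrays, with replicate 2 the higher, and 38441 to 39145 in embryo.

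Markers of embryo and endosperm gave signals on the seed coat arrays: the embryo genes summed to less than in embryo, the endosperm genes to less than in peripheral and micropylar endosperm, and both to more than in chalazal seed coat. The 5 tested genes of embryo reserves and embryo identity summed to 4522 to 6358 in seed coat, against 505 to 769 in chalazal seed coat, 36696 to 48456 in peripheral and micropylar endosperm, 8551 to 14800 in chalazal endosperm and 93733 to 145434 in embryo. The vicilin-type PAP85 (AT3G22640) had 2226 and 3807 in seed coat, against 361 and 273 in chalazal seed coat (3.21 ± 0.42, limma adjusted p = 0.00028), and 79666 and 34428 in embryo. STOMAGEN (AT4G12970), a peptide that promotes stomata and was listed as an embryo marker, had 25.1 and 32.9 in seed coat, against 5110 and 2983 in embryo (-7.09 ± 0.69, limma adjusted p = 4.5e-06), and YAB3 (AT4G00180) had 15.2 and 175 in seed coat, against 1978 and 1557 in embryo. All 5 were lower than in embryo (15.5% of all tested probe sets were), and 2 of 5 were higher than in chalazal seed coat (6.55%). The part of embryo or endosperm RNA in the seed coat values of these genes was not tested.

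The 6 tested endosperm markers summed to 2262 to 2471 in seed coat, against 435 to 445 in chalazal seed coat, 11537 to 16333 in peripheral, 27960 to 31795 in micropylar and 1053 to 1313 in chalazal endosperm and 1604 to 1657 in embryo. All 6 were lower than in micropylar endosperm (12.9% of all tested probe sets were), 3 lower than in peripheral endosperm (13%) and 3 higher than in chalazal seed coat (6.55%). Of these, AT3G29190 was not called against micropylar endosperm without either of its replicates (limma adjusted p = 0.053 and 0.059) or seed coat replicate 1 (0.074), or against peripheral endosperm without its replicate 1 (0.07) or seed coat replicate 1 (0.054). The expansin EXPA4 (AT2G39700) had 931 and 481 in seed coat, against 24.5 and 77.3 in chalazal seed coat (3.93 ± 0.59, limma adjusted p = 0.00068) and 13096 and 12267 in micropylar endosperm (-4.24 ± 0.59, limma adjusted p = 0.00015). The tetraspanin TET4 (AT5G60220) had 88.5 and 61.4 in seed coat, against 4010 and 3593 in micropylar endosperm (-5.69 ± 0.63, limma adjusted p = 2.9e-05). The 3 chalazal regulators tested were all lower than in chalazal seed coat, as were 6.46% of all tested probe sets. RR22 (AT3G04280) had 310 and 655 in seed coat, against 23601 and 18562 there. HAT2 (AT5G47370) had 23.9 and 219, against 11013 and 7240, and NGA4 (AT4G01500) had 34.3 and 6.31, against 135 and 250. Their log2 differences were -5.54 ± 0.91, -6.92 ± 0.95 and -2.65 ± 0.69 (limma adjusted p = 0.0013, 0.00037 and 0.021), the last with 0.1 without chalazal seed coat replicate 2 and 0.07 without seed coat replicate 2.

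The opposite pattern, at least 4-fold below the lowest other compartment, held for 83 probe sets, also 83 after division by the array median. AT4G33560 was the furthest, with 21.8 and 7.97 in seed coat, against 310 to 3227 on the 10 other compartment arrays and 456 and 700 in whole seeds, at least 17.8-fold lower in seed coat. AT2G23950, a receptor-like kinase, had 11.7 and 16.2 in seed coat, against 134 to 491 on the others, and the peroxidase AT2G22420 had 14.9 and 7.91, against 111 to 3641. AT1G25550, a GARP-type transcription factor, had 33.9 and 26.4 in seed coat, against 201 to 3612, highest in chalazal seed coat. AT4G25170 (88.2 and 16.4 in seed coat) and AT5G22280 (46.7 and 442) had uneven seed coat arrays. AT3G49100, AT2G47500, AT2G45730 and AT5G25475 completed the 10 lowest genes, at 6.03-fold to 6.66-fold. These values chose the genes and are given as a description.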

How the data were processed

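The values are linear intensity signals of 14 arrays from 7 groups, deposited by the authors. GCOS is the tool named for them in the submitters' processing notes, and the sources used here do not give its version, algorithm or scaling. So few arrays limit the precision. Every signal under a floor of 25 was set to 25 before taking log2. The platform table gave 1 gene for 13484 of 22746 probe sets, several for 503 and none for 8759, and 64 controls were left out. A probe set was tested if both arrays of at least 1 compartment lay above their own array's median (14142). A linear model with 1 mean per compartment and 6 residual degrees of freedom was fitted to 12 arrays in limma 3.58.1 (R 4.3.3) with an intensity trend, and p-values were adjusted within each comparison by the Benjamini-Hochberg method. It was tested on simulated data. Genes were named by rule: the 25 members with 1 gene and the largest fold, members with a symbol or a role, 3 genes on each side of the threshold, the 10 lowest, up to 3 genes with a symbol in each direction of each comparison, and the tested listed genes. Members, lists and rules were chosen with earlier results of these data known. Alternatives were other scalings, floors and filters, a replicate block, all 14 arrays, no trend and leaving out each array. Leaving out an array leaves 1 in its group and can raise p-values by itself. A call lost that way therefore need not rest on that array.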

Additional observations from a re-analysis of the deposited data

How the results depend on the processing

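The seed coat set held 218 probe sets, 67 with spike-in scaling, 863 at 2-fold, 52 at 8-fold, 47 when the lower seed coat array had to exceed the highest other array 4-fold under both scalings, 334 with the deposited scaling alone (chosen after seeing the data), and 175 to 359 without single arrays. Against chalazal seed coat, division by the median gave 597 higher and 1398 lower, spike-in scaling 235 and 4920, and single arrays left out 381 to 1036 and 408 to 870. Against peripheral endosperm spike-in scaling gave 637 higher and 7234 lower, division by the median 2900 lower, and single arrays left out 985 to 1752 (lowest without peripheral endosperm replicate 1) and 915 to 1915. Against micropylar endosperm division by the median gave 1138 higher and 3033 lower, spike-in scaling 692 and 6095, and single arrays left out 1141 to 1852 and 1016 to 1901. Against chalazal endosperm spike-in scaling gave 778 higher and 6034 lower, division by the median 2580 lower, and single arrays left out 1170 to 1768 and 953 to 1790. Against embryo spike-in scaling gave 1014 higher and 5273 lower, and single arrays left out 1655 to 2278 and 1463 to 2269. In all 5 comparisons, higher counts were 142 with division by the median, 49 with spike-in scaling, 124 with no floor, 519 with a floor of 100, and 92 to 204 without single arrays. Lower counts were 308, 1973, 83 with no filter, 83 with no trend, and 65 to 247 without single arrays. Over the 13 counts, 223 values stayed within 1.5 times and 50 did not. The cause was not tested.

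Of 144 called differences of named genes outside the set, 14 were lost with division by the median, 8 with quantile normalization, 32 with spike-in scaling, 16 with no floor, 9 with a floor of 100, 19 with no filter, 16 with no trend, 0 with all 14 arrays, 28 without seed coat replicate 1 and 26 without replicate 2. With spike-in scaling 2 turned, UGT78D1 against micropylar endosperm (-0.073) and AMY1 against peripheral endosperm (-0.03). The labels do not say whether arrays with the same replicate number share plants. Over 15 pairs of compartments the deviations of same-numbered arrays correlated at -0.06 to 0.10, none above 0.1. Noise of single arrays could hide a shared part, so these values cannot tell whether the samples are paired. A replicate block gave 968 higher and 940 lower against chalazal seed coat, moved no count by over 1.5 times and lost 1 of the 144 calls. Signals near the floor of 25 carry no order, which limits dim genes.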
